A study of Mus musculus with 32 samples.

Results

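Plaque-associated microglia (PAM) were set against plaque-distant microglia (PCM) of the same 4 mice at 12 mo. The comparison holds 8 of the 32 samples of the series, 4 PAM and 4 PCM, which were paired by the mouse number in the sample title (1032, 1033, 1107 and 1108). Both subtypes came from the cerebral cortex of transgenic APP/PS1 mice in which 1 of the 2 copies of Cx3cr1 is replaced by eGFP. eGFP-positive cells were laser-captured, within 75 µm of a plaque according to the labels for PAM (the study's methods give a slightly smaller distance) and more than 100 µm away for PCM, and the cells of a mouse were pooled into 1 sample per subtype. Levels in control microglia (CM) of 4 CX3CR1+/eGFP mice of 12 mo without the APP/PS1 transgenes, and in PAM and PCM of 4 other APP/PS1 mice of 8 mo, are given beside them. All these mice lack 1 working copy of Cx3cr1, itself a microglial gene, and eGFP under the Cx3cr1 promoter also marks other cells of the monocyte lineage. The labels and methods name no promoter for the transgenes. The files list 1 gene named App, read against the mouse genome, and do not separate a transgene from it.

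Microglia are the resident macrophages of the brain. Near amyloid plaques they are known to leave a resting state, marked by genes such as P2ry12 and Tmem119, for a state called disease-associated, marked by lipid carriers, lysosomal proteases and their inhibitors, and cell surface receptors. Part of this change is known to depend on TREM2, a receptor for lipids that signals through the adaptor TYROBP.

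Levels are FPKM (fragments per length of transcript and depth of sequencing), added up over all transcripts of a gene and scaled between samples with the Relative Log Expression (RLE) method. Values of the 4 mice are always given in the order 1032, 1033, 1107, 1108. The test was limma, run on log2(FPKM + 1) with the mouse as a block, for genes at 1 FPKM or more in at least 3 of the 4 mice of PAM or of PCM. The log2FC, or log2 fold change, is here the mean of the 4 differences within mice and with the 1 added it understates the change of genes with low FPKM. DEGs are genes with a 2-sided adjusted p-value under 0.05 over all genes tested.

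Depth, estimated from the deposited coverage and FPKM of long transcripts, was even between the subtypes, at 28.15, 27.58, 30.95 and 29.89 M reads in PCM and 29.91, 24.15, 27.18 and 34.41 M in PAM. The 10 most abundant genes took 11.35, 8.21, 10.31 and 8.45% of all FPKM in PCM and 11.28, 12.87, 13.78 and 13.97% in PAM. All 16 microglia markers were detected in all 8 samples, as were all 17 astrocyte markers. In these pooled captures, fewer cells of a type and less RNA per cell cannot be told apart.

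Mouse 1032 was lowest of the 4 mice in neuronal RNA in both subtypes. The summed level of the 19 neuron markers was 2488, 3809, 3618 and 3920 FPKM in PCM and 2107, 3103, 3169 and 3519 in PAM, lowest in mouse 1032 in both. Snap25, a protein of the synaptic release machinery and the most abundant of them, was at 806, 1744, 1661 and 1721 FPKM in PCM and at 690, 1318, 1372 and 1624 in PAM. The neuropeptide precursor Penk was at 489, 98.6, 30.4 and 72.6 FPKM in PCM, and the calcium-binding protein Calb2 at 88.7, 11.8, 10.6 and 6.67, both highest in mouse 1032. The microglia markers summed to 8692, 7485, 11602 and 8399 FPKM in PCM and to 7855, 15731, 19137 and 19364 in PAM. The sum in PAM of mouse 1032 lay within the range of PCM, and those of the other 3 mice above it. The sum is led by Tyrobp in PAM, and whether it follows the content of microglia or the regulation of such genes was not tested. Of the 16 markers, 0 were up-regulated and 1, Tmem119, down-regulated by limma (11 at an unadjusted p-value under 0.05, median log2FC 0.49), and without mouse 1032 it was 9 and 1 (median 0.69). By Dixon's criterion neither sum was marked, and mice 1032 and 1107 had the same number of marked gene values (10 each). Results are also given without mouse 1032, a choice made after the values were seen, because its differences were most often the smallest of the 4. A fit without a mouse chosen in this way is no independent support for the fit with all mice. The part of cell composition in the results below was not tested.

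Of 12136 genes tested in PAM vs PCM at 12 mo, 124 were up-regulated (1.02%) and 3 down-regulated (0.0247%). At an unadjusted p-value under 0.05 (limma) there were 1425 genes, 913 higher and 512 lower in PAM. The median log2FC of all genes tested was 0.00. All 124 up-regulated genes were higher in PAM in 4 of 4 mice, with log2FC from 0.65 to 3.65 (median 1.43), and for 106 of them every PAM sample lay above every PCM sample. Over all genes tested, every PAM sample lay above every PCM sample for 3.64% and below for 2.03%. Of the 12136 genes tested, 1278 were higher and 1129 lower in PAM in 4 of 4 mice. The DEGs were chosen by a test on these same differences, so their agreement between the mice is no further support. The 3 down-regulated genes were lower in 4 of 4 mice, 2 of them without overlap. Calls were more frequent among abundant genes. By mean PAM level, 61 of 923 genes at 100 FPKM or more were up-regulated, 57 of 5244 at 10 to 100 FPKM and 6 of 5969 under 10 FPKM. The counts by list below were not matched for level.

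The number of DEGs depended on the mice and on the fit. It was 357 without mouse 1032 (328 up, 29 down, with all 127 DEGs among them), but 11 without mouse 1033, 6 without mouse 1107 and 16 without mouse 1108. With all mice, limma called 0 genes when the variance was not fitted as a trend of the level (1332 at an unadjusted p-value under 0.05) and 0 when genes of low FPKM were kept (1510 at an unadjusted p-value under 0.05). DEGs in each of the 4 fits that left out 1 mouse were Ccl3, Cd68, Cst7, Gpnmb, Spp1 and Ctsa, the last chosen after its values were seen. Every other DEG named below was lost without at least 1 of mice 1033, 1107 and 1108.

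Without the mouse as a block there were 106 up-regulated genes and 1 down-regulated. Of the DEGs named by rule, 14 were then short of the threshold by limma, with unchanged log2FC: Spp1 and Gng11 (adjusted p = 0.051 each), Ccl4 and Arpc1b (0.052 each), Timp2 (0.062), Ctsd (0.065), Slc16a3 (0.068), H2-D1 (0.07), Tmem119 (0.078), Tlr2 (0.12), H2-K1 (0.15), Ifit3 (0.23), Ifitm3 (0.24) and Pdyn (0.28). The genes named by rule that passed only then were Crybb1 (0.034), Psmb8, a subunit of the immunoproteasome (0.044), and Fabp5 (0.048). Crybb1 was the 1 down-regulated gene of this fit, so Tmsb15b2, chosen after its values were seen, had lost its call too. DEGs chosen in that way are not counted among the 14. By list, the number of up-regulated genes became 24 for the disease-associated list, 12 for the lysosome, 11 for lipid handling and 7 for growth factors and matrix. It became 3 each for the interferon response and Alzheimer risk genes, and 2 each for MHC class I, chemokines and TREM2 signalling. For toll-like receptors, glycolysis and actin it became 1 each.

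The mice did not contribute equally. Over the 124 up-regulated genes, the median difference between PAM and PCM on the log2 scale was 0.98 in mouse 1032, 1.58 in mouse 1033, 1.51 in mouse 1107 and 1.56 in mouse 1108. In 83 of the 124 the smallest of the 4 differences was that of mouse 1032, against 16, 15 and 10 for the other mice. Over all 12136 genes tested the smallest was that of mouse 1032 in 3962, and of the others in 2763, 2945 and 2466. PAM of mouse 1032 also had the lowest of the 4 PAM levels for 92 of them, while over all genes tested it was lowest for 3777 of 12136. Without mouse 1032 the median log2FC of the same 124 genes was 1.59.

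The counts by list given below for the fit without mouse 1032 stand against lower ones without each of the other mice. Without mouse 1033, 1107 and 1108 in turn, the up-regulated genes numbered 5, 4 and 8 in the disease-associated list, 4, 3 and 4 in the lysosome, 2, 1 and 2 in growth factors and matrix, 1 each in chemokines and in lipid handling, 1, 0 and 1 in the interferon response, 2, 0 and 3 in reactive astrocyte genes, 1, 0 and 1 in astrocyte markers and 0, 0 and 1 in complement. In all other lists limma called 0 up-regulated genes without any 1 of these 3 mice, and 0 down-regulated genes in every list, where all genes tested had 1042, 1090 and 1088 at an unadjusted p-value under 0.05. The median log2FC of the lists kept its sign except where stated below.

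The disease-associated list had 32 genes, all tested. Of these 27 were up-regulated and 0 down-regulated by limma (31 at an unadjusted p-value under 0.05), with a median log2FC of 1.54. In the single mice the median was 0.91, 1.74, 1.58 and 1.79. Without mouse 1032, 31 of the 32 were up-regulated, with a median of 1.73.

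The largest rise without overlap was that of Gpnmb, a glycoprotein of lysosomes and the cell surface, at 0.0317, 3.95, 6.9 and 11.8 FPKM in PCM and 21.2, 40.2, 184 and 74.6 in PAM (log2FC 3.65, adjusted p = 0.0035). All 4 PAM samples lay above all PCM samples, with mouse 1107 highest in PAM, and CM were at 0.135 FPKM on average. Spp1, which encodes the secreted matrix protein osteopontin, was at 16.3, 6.73, 186 and 31.5 FPKM in PCM and 175, 202, 818 and 670 in PAM (log2FC 3.64, adjusted p = 0.0035). It was higher in PAM in every mouse, but the groups overlapped because PCM of mouse 1107 exceeded PAM of mouse 1032. Cst7, an inhibitor of cathepsins, was at 98.3, 120, 313 and 148 FPKM in PCM and 402, 1004, 1485 and 1751 in PAM (log2FC 2.72, adjusted p = 0.0028). Its groups did not overlap, PAM of mouse 1032 was the lowest of PAM, and CM, at 1.33 FPKM on average and 4.17 at most, lay under every PCM sample. When each mouse was left out in turn, the log2FC ranged from 3.35 to 4.01 for Gpnmb, from 3.28 to 4.14 for Spp1 and from 2.44 to 2.95 for Cst7.

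Cd200r4, a surface receptor of the CD200 receptor family, was at 0.102, 1.98, 0.0106 and 1.77 FPKM in PCM and 12.9, 23.8, 25.1 and 16.3 in PAM (log2FC 3.51, adjusted p = 0.0054). Prelid2, of a family of lipid transfer proteins, was listed at 0 in 2 PCM samples and at most at 0.858 FPKM in the others, and was at 14, 6.98, 20.7 and 10.7 in PAM (log2FC 3.39, adjusted p = 0.0095). St14, a membrane serine protease, was at 0, 3.16, 3.62 and 3.53 FPKM in PCM and 13.3, 10.7, 28.5 and 20.8 in PAM (log2FC 2.57, adjusted p = 0.023). In all 3 the groups were apart, and the lowest PCM sample was that of mouse 1032 for Prelid2 (with mouse 1107, both at 0) and St14 but not for Cd200r4. Mamdc2, a secreted protein of the matrix, was at 6.76, 4.25, 4.7 and 1.19 FPKM in PCM and 28.5, 28.5, 27.8 and 16.6 in PAM (log2FC 2.44, adjusted p = 0.0059). Mouse 1108 was lowest in both subtypes, mouse 1032 was highest in PCM, and the groups did not overlap.

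**Figure D1:**
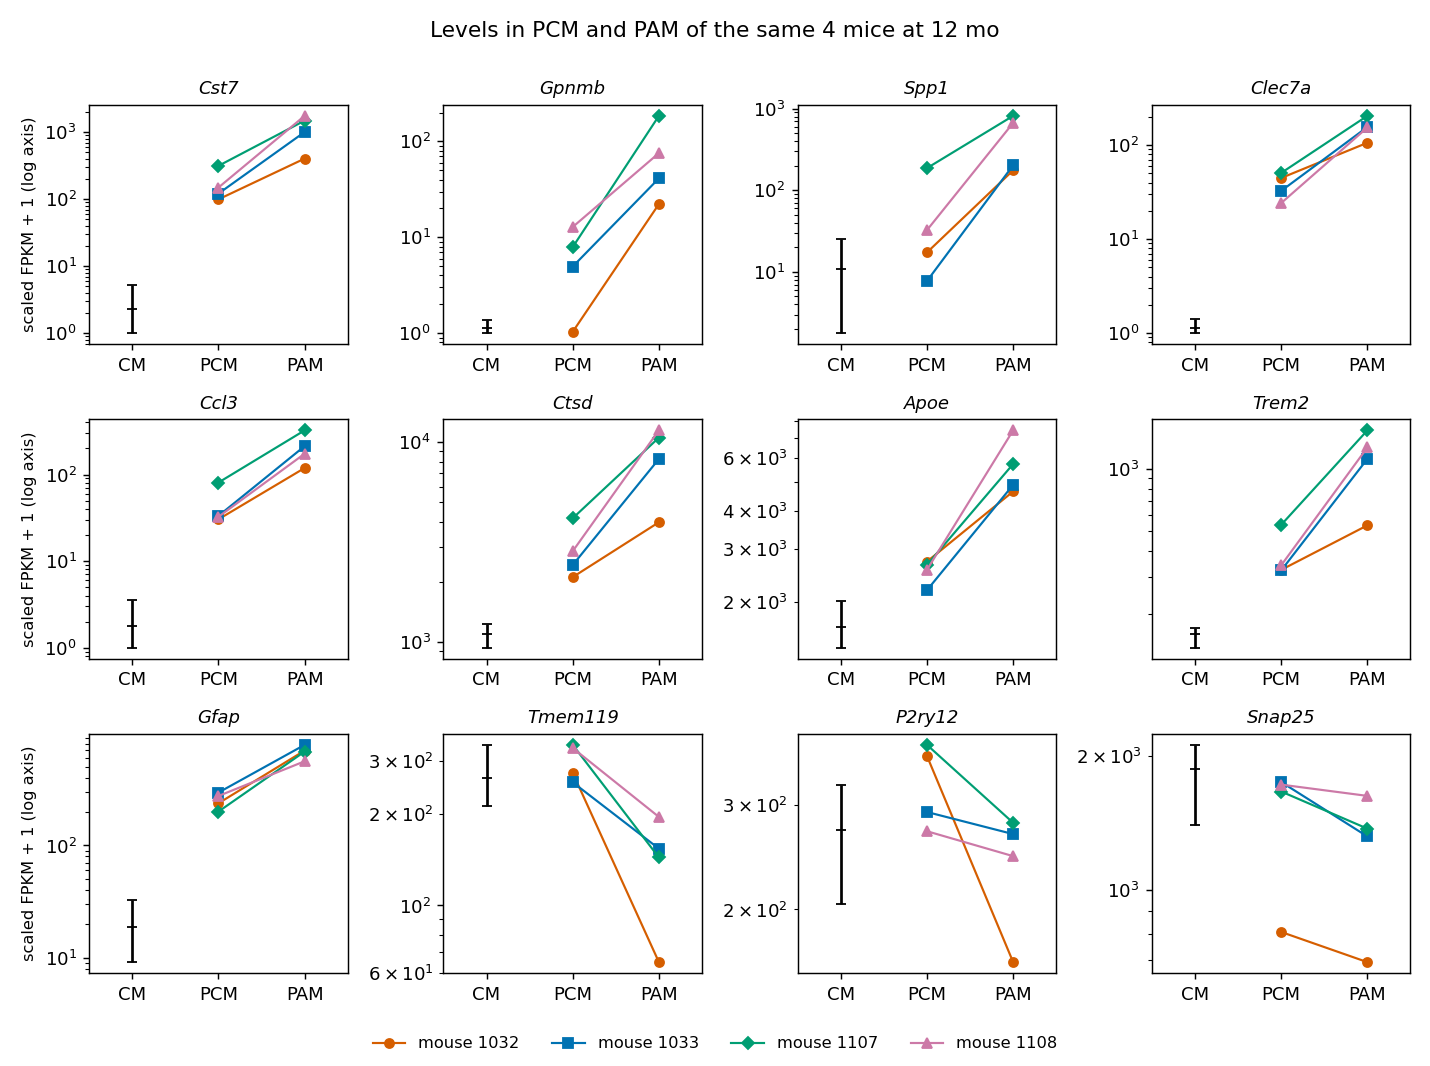
Scaled FPKM + 1 (log axis) of 12 genes in PCM and PAM at 12 mo, each line joining the 2 samples of 1 mouse, with the mean of CM and bars from the lowest to the highest of 4 CM. Cst7 goes from 98.3 to 313 FPKM in PCM to 402 to 1751 in PAM, and Snap25 is lowest in both samples of mouse 1032 (806 and 690 FPKM).

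Itgax, the integrin CD11c, was at 1.05, 2.32, 4.47 and 6.79 FPKM in PCM and 12.3, 27.2, 31.1 and 30.6 in PAM (log2FC 2.59, adjusted p = 0.0054). Clec7a, a lectin receptor for fungal glucans, was at 43.7, 31.6, 49.6 and 23.2 FPKM in PCM and 105, 155, 204 and 153 in PAM (log2FC 2.05, adjusted p = 0.0042). Axl, a receptor tyrosine kinase for the clearance of dying cells, was at 21.4, 17.6, 15.2 and 28.6 FPKM in PCM and 41, 66.3, 87.8 and 83.7 in PAM (log2FC 1.68, adjusted p = 0.015). None of the 3 overlapped between the subtypes, and PAM of mouse 1032 was the lowest PAM sample in each. Without mouse 1032 their log2FC were 2.55, 2.31 and 1.94, so that only that of Itgax was not larger.

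Trem2 itself was at 324, 322, 535 and 341 FPKM in PCM and 532, 1114, 1530 and 1265 in PAM (log2FC 1.48, adjusted p = 0.0091). Every mouse was higher in PAM, but PAM of mouse 1032 (532) lay just under PCM of mouse 1107 (535). The shorter of its 2 transcripts (1091 bases) held 82.9% of Trem2 FPKM in PCM and 84.5% in PAM. Its adaptor Tyrobp was at 1065, 703, 1262 and 757 FPKM in PCM and 1184, 3151, 3698 and 4612 in PAM, and stayed short of the threshold (log2FC 1.62, adjusted p = 0.059). The difference was small in mouse 1032 only, and without that mouse Tyrobp was up-regulated (log2FC 2.11, adjusted p = 2.1e-04). With any other mouse left out instead, Tyrobp did not pass, and its lowest log2FC was 1.29. Hcst, the adaptor DAP10, rose from 23.9, 22.4, 30.9 and 13.4 FPKM to 43, 102, 85.5 and 80.2 (log2FC 1.72, adjusted p = 0.019), without overlap. Of 18 genes tested in the list of TREM2 and ITAM signalling, 3 were up-regulated and 0 down-regulated by limma (7 at an unadjusted p-value under 0.05), with a median log2FC of 0.62, and without mouse 1032 it was 6.

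Among Fc receptors, which bind antibodies, 2 of 6 were up-regulated (median log2FC 0.96), and 4 of 6 without mouse 1032. The common signalling chain Fcer1g was at 742, 493, 743 and 503 FPKM in PCM and 925, 1804, 2046 and 1587 in PAM (log2FC 1.33, adjusted p = 0.029). The inhibitory receptor Fcgr2b was at 64.7, 54.8, 115 and 78.5 FPKM in PCM and 151, 153, 211 and 216 in PAM (log2FC 1.25, adjusted p = 0.0066). Neither overlapped. The activating receptors Fcgr1, Fcgr3 and Fcgr4 had log2FC of 0.90, 0.82 and 1.03 and were not past the threshold (adjusted p = 0.14, 0.087 and 0.42).

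Secreted signals came next. Ccl3, a chemokine that draws monocytes and other leukocytes, had the smallest p-value of all genes and was at 29.4, 32.3, 79.8 and 31.5 FPKM in PCM and 118, 212, 323 and 173 in PAM (log2FC 2.27, adjusted p = 0.0018). Mouse 1107 was highest in both subtypes, and the lowest PAM sample lay above the highest PCM sample. Its neighbour Ccl4, a chemokine of the same family, was at 77.5, 42.2, 76.3 and 38.4 FPKM in PCM and 129, 260, 265 and 93.4 in PAM (log2FC 1.59, adjusted p = 0.025). Ccl6 rose from 236, 141, 157 and 106 FPKM to 276, 463, 445 and 316 (log2FC 1.25, adjusted p = 0.037), with the smallest step in mouse 1032. CM held 0.757, 1.6 and 13.1 FPKM of the 3 on average. They were 3 of 16 genes tested in the list of chemokines and their receptors, where 0 were down-regulated by limma (8 at an unadjusted p-value under 0.05) and the median log2FC was 0.46. Without mouse 1032, 5 of the 16 were up-regulated and the median was 0.88, while without mouse 1033 the median was 0.29.

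Of the cytokines and their receptors, 1 of 21 genes tested passed (median log2FC 0.49), and 2 without mouse 1032. This was Csf2ra, a chain of the receptor for GM-CSF, at 6.17, 6.8, 12.8 and 2.87 FPKM in PCM and 20.8, 21.3, 43.2 and 27 in PAM (log2FC 1.92, adjusted p = 0.019). Il1b was low, at 0, 1.41, 0 and 0 FPKM in PCM and 6.89, 12.9, 1.29 and 1.08 in PAM, and did not pass (log2FC 1.94, adjusted p = 0.099). It was higher in PAM in each mouse, but PAM of mice 1107 and 1108 lay under PCM of mouse 1033.

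Growth factors and matrix proteins held 9 up-regulated and 0 down-regulated genes of 26 tested by limma (15 at an unadjusted p-value under 0.05), with a median log2FC of 0.91. Igf1, the insulin-like growth factor, was at 6.76, 3.09, 7.87 and 4.54 FPKM in PCM and 20.6, 48.4, 47.5 and 41.3 in PAM (log2FC 2.61, adjusted p = 0.0085). A short transcript of 1087 bases held 54.5% of Igf1 in PCM and 54.8% in PAM, and a long one of 7069 bases 36.7 and 35.7%, taken over the 4 mice. In single PCM samples the short one was at 4.27, 1.19, 3.86 and 2.81 FPKM of the totals above, so its share varied. Lgals3, the sugar-binding galectin-3, was at 7.63, 3.16, 6.21 and 4.15 FPKM in PCM and 24.9, 30.7, 39.2 and 26.4 in PAM (log2FC 2.35, adjusted p = 0.0066). Timp2, an inhibitor of metalloproteases, was at 65.3, 68.7, 104 and 74.5 FPKM in PCM and 106, 152, 187 and 239 in PAM (log2FC 1.08, adjusted p = 0.025), and Anxa5, which binds phosphatidylserine, at 66.7, 71.7, 67.4 and 68.3 in PCM and 174, 126, 183 and 134 in PAM (log2FC 1.14, adjusted p = 0.011). None of these 4 overlapped between the subtypes. Of the 2 transcripts of Lgals3, the shorter (1379 bases) was at 7.63, 3.16, 6.21 and 0.698 FPKM in PCM and 0.00579, 27.5, 9.55 and 24.2 in PAM, 83.7 and 50.6% of the gene. Its share was lower in PAM in 3 mice and higher in mouse 1108. Within PAM alone it ran from 0.00579 of 24.9 FPKM in mouse 1032 to 24.2 of 26.4 in mouse 1108. How well reads can be assigned between transcripts of 1379 and 1406 bases was not checked. No change of transcript between the subtypes is therefore read from these shares.

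Lysosomal genes were the largest list. Of 47 tested, 18 were up-regulated and 0 down-regulated by limma (33 at an unadjusted p-value under 0.05), with a median log2FC of 0.81. The median was 0.58, 0.81, 0.67 and 0.91 in the single mice, so that mouse 1032 was nearer to the others here than in the disease-associated list. The protease Ctsd was at 2115, 2432, 4169 and 2852 FPKM in PCM and 3982, 8256, 10560 and 11482 in PAM (log2FC 1.51, adjusted p = 0.0095). Every mouse rose, but PAM of mouse 1032 lay under PCM of mouse 1107. Ctsb, another protease, was at 304, 367, 480 and 410 FPKM in PCM and 593, 1019, 1345 and 1253 in PAM (log2FC 1.38, adjusted p = 0.0042), and Ctsz, a carboxypeptidase, at 400, 493, 668 and 543 in PCM and 848, 1635, 2052 and 1989 in PAM (log2FC 1.57, adjusted p = 0.004). Cd68, a glycoprotein of the lysosomal membrane, was at 215, 244, 352 and 261 FPKM in PCM and 512, 794, 1271 and 935 in PAM (log2FC 1.66, adjusted p = 0.0028). These 3 did not overlap. The protease Ctss was at 796, 806, 1404 and 1084 FPKM in PCM and 774, 1803, 2108 and 2922 in PAM and did not pass (log2FC 0.78, adjusted p = 0.2), and without mouse 1032, the only mouse that was not higher in PAM, it did (log2FC 1.06, adjusted p = 0.0044). The proton pump subunit Atp6v0d2 was listed at 0 in 3 PCM samples, with 0.734 FPKM in that of mouse 1033, and was at 3.33, 0.682, 11 and 7.42 FPKM in PAM (adjusted p = 0.16).

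The promoters of the lysosomal genes were searched for TCACGTG, on both strands, the core of the sequence that factors of the TFEB family are known to bind in promoters of lysosomal genes. The windows run from 250 bases before to 50 after a gene's start and come from RefSeq (GRCm38.p6, the assembly also named mm10). Of all 32851 windows, 3.77% held the motif. By gene, 37 of the 47 lysosomal genes had a window and 10 of these held it (27.0%), against 644 of 9052 genes tested that had a window (7.11%) and 7 of 98 up-regulated genes (7.14%). Within the lysosomal list it was held by 4 of 14 up-regulated genes and 6 of 23 that did not pass (28.6 and 26.1%). The 4 are shown, chosen after their values were seen, 5′ to 3′ on the strand of the gene and with the motif in capitals, from Ctsd (chr7:142387778-142388077, minus strand), Ctsa, a carboxypeptidase that protects other lysosomal enzymes (chr2:164833523-164833822, plus strand), Lamp1, of the lysosomal membrane (chr8:13158911-13159210, plus strand), and Naglu, which breaks down heparan sulfate (chr11:101069844-101070143, plus strand).
Ctsd: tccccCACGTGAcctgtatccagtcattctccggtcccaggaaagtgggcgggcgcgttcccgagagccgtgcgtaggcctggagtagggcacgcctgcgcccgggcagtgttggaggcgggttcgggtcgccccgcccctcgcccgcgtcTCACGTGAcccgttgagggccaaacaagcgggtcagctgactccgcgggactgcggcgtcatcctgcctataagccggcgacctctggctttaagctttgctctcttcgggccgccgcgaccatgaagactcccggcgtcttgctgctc
Ctsa: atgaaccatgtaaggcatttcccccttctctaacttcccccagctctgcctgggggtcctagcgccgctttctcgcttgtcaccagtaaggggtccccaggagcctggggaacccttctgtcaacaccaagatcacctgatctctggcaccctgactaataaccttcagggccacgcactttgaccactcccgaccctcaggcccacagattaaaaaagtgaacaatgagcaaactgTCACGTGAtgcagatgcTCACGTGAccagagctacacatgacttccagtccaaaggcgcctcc
Lamp1: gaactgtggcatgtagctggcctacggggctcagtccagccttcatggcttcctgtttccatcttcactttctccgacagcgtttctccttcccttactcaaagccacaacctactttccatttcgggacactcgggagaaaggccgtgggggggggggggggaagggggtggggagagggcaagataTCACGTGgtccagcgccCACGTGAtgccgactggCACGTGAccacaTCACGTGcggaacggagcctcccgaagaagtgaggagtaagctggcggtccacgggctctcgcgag
Naglu: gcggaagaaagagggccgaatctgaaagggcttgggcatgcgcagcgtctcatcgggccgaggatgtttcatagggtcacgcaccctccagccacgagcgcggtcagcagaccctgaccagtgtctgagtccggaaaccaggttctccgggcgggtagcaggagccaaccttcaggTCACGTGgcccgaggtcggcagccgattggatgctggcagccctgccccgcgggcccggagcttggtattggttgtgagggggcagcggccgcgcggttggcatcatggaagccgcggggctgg
The match and its reverse can share a stretch of 8 bases, in which case the capitals run to 8. There were 4 separate stretches for Lamp1, 2 each for Ctsd and Ctsa and 1 for Naglu. Lamp1 was at 289, 313, 356 and 367 FPKM in PCM and 416, 508, 600 and 575 in PAM (log2FC 0.65, adjusted p = 0.044), the smallest log2FC among the 124, and Ctsa at 44.3, 98, 155 and 114 in PCM and 149, 253, 377 and 334 in PAM (log2FC 1.48, adjusted p = 0.0035). Lamp1 did not overlap, and Ctsa did through PAM of mouse 1032. A match is a description of these letters and no evidence of binding.

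Lipid handling had 7 up-regulated and 0 down-regulated genes of 34 tested by limma (13 at an unadjusted p-value under 0.05), with a median log2FC of 0.35, and without mouse 1032 it was 11. Apoe, the main lipid carrier of the brain, was at 2722, 2188, 2654 and 2557 FPKM in PCM and 4657, 4897, 5744 and 7429 in PAM (log2FC 1.15, adjusted p = 0.016). The PCM samples were close together, each PAM sample lay above them, and CM were at 1656 FPKM on average. The genes of 2 smaller apolipoproteins lie beside Apoe on chromosome 7. Apoc2, which activates lipoprotein lipase, was listed at 0 in all 4 PCM and all 4 CM samples and was at 3.17, 2.74, 4.7 and 8.68 FPKM in PAM (log2FC 2.44, adjusted p = 0.025). Apoc4 was listed at 0 in 3 PCM samples, with 2.89 FPKM in that of mouse 1032, and was at 7.68, 4.15, 7.25 and 21.5 FPKM in PAM (log2FC 2.76, adjusted p = 0.045). PAM of mouse 1108 was the highest sample for all 3 genes. Ch25h, which makes 25-hydroxycholesterol, was at 7.87, 4.16, 5.56 and 14.6 FPKM in PCM and 18.3, 46.7, 79.4 and 37.5 in PAM (log2FC 2.31, adjusted p = 0.035), without overlap. The fatty acid carrier Fabp5 did not overlap either but was short of the threshold (log2FC 0.92, adjusted p = 0.059).

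Antigen presentation by MHC class I had 3 up-regulated genes of 14 tested (median log2FC 0.86), and 5 without mouse 1032. B2m, the light chain, was at 1357, 979, 1666 and 1219 FPKM in PCM and 1903, 3295, 3881 and 4079 in PAM (log2FC 1.30, adjusted p = 0.025). The heavy chains H2-D1 and H2-K1 had log2FC of 1.32 and 1.04 (adjusted p = 0.0054 and 0.037), both higher in PAM in 4 of 4 mice and both with overlap. Of MHC class II, 1 of 8 genes tested passed (median log2FC 0.78). Cd74, the invariant chain, was at 47, 22.2, 60.7 and 25.1 FPKM in PCM and 86.4, 85.9, 171 and 211 in PAM (log2FC 1.82, adjusted p = 0.023). H2-Ab1, a chain of the class II molecule, was at 37.1, 13.1, 25.1 and 12 FPKM in PCM and 43.4, 45.9, 52.7 and 62.8 in PAM and was not past the threshold (log2FC 1.32, adjusted p = 0.095). PCM of mouse 1032 was the highest PCM sample of H2-Ab1, and without that mouse it was up-regulated (log2FC 1.69, adjusted p = 0.0062). H2-Aa, its partner, overlapped (31.6, 6, 20.8 and 8.61 in PCM, 29.1, 15, 37.2 and 56.3 in PAM, adjusted p = 0.27). Without mouse 1032, 6 of the 8 class II genes were up-regulated and the median log2FC was 1.10, while without mouse 1108 the median was 0.50.

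Genes of the interferon response had a high median log2FC, 1.30 over 27 genes, of which 5 passed, all up-regulated, and 10 without mouse 1032. Isg15, a ubiquitin-like protein, was at 5.01, 2.55, 8.19 and 13.3 FPKM in PCM and 21.9, 38.4, 23.3 and 44.4 in PAM (log2FC 2.12, adjusted p = 0.025). Ifi27l2a was at 113, 77.2, 54.4 and 76 FPKM in PCM and 144, 431, 346 and 355 in PAM (log2FC 1.92, adjusted p = 0.027), and Ifitm3, which blocks the entry of viruses, at 118, 105, 50.4 and 243 in PCM and 157, 274, 303 and 643 in PAM (log2FC 1.44, adjusted p = 0.046). Of these 3, Ifitm3 overlapped between the subtypes, through PCM of mouse 1108. Lgals3bp, a secreted glycoprotein, rose in all 4 mice without overlap (48.2, 72.6, 73.4 and 94.4 in PCM, 107, 205, 216 and 337 in PAM, log2FC 1.50, adjusted p = 0.0042). Among genes induced by interferon whose proteins bind or sense RNA, Ifit3 passed (log2FC 1.30, adjusted p = 0.037), with overlap through the same PCM sample, and Ifit2 and Oasl2 were higher in PAM in 4 of 4 mice and did not (log2FC 1.85 and 1.10, adjusted p = 0.087 and 0.17). Ifit2 was at 0.894, 4.42, 5.86 and 3.49 FPKM in PCM and 15.8, 9.22, 13.9 and 20 in PAM, without overlap. Cxcl10 was spread from 0 to 13.4 FPKM in PCM and from 4 to 51.5 in PAM (adjusted p = 0.22).

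Of other defence genes, 2 passed in each of 3 lists, with all genes tested at 1.02%. Without mouse 1032 there were 3 of 16 for toll-like receptors and inflammasome and 3 of 7 for the NADPH oxidase. Of toll-like receptors and inflammasome genes, 2 of 16 tested were up-regulated (median log2FC 0.75), the receptor Tlr2 at 9.11, 15.6, 33.9 and 12.9 FPKM in PCM and 30.1, 38.3, 72.9 and 43 in PAM (log2FC 1.40, adjusted p = 0.013) and its partner Cd14 (log2FC 1.35, adjusted p = 0.014), both with overlap through PCM of mouse 1107. Casp4, of the same list, was at 0, 1.01, 0 and 0 FPKM in PCM and 9.63, 0.965, 9.54 and 4.47 in PAM (adjusted p = 0.14). Of the NADPH oxidase, which makes superoxide, 2 of 7 genes were up-regulated (median log2FC 1.01). Its catalytic subunit Cybb was at 1.48, 1.24, 1.76 and 2.58 FPKM in PCM and 5.84, 7.54, 12.2 and 17.8 in PAM (log2FC 2.01, adjusted p = 0.03). The subunit Cyba, which forms the membrane part with it, was at 316, 209, 296 and 234 FPKM in PCM and 421, 626, 791 and 501 in PAM (log2FC 1.13, adjusted p = 0.026). Both were apart between the subtypes, while the cytosolic subunit Ncf1 was lower in PAM of mouse 1032 and higher in the other 3 mice (log2FC -0.05, adjusted p = 0.97). Of the complement genes, 2 of 12 passed (median log2FC 0.73), Itgax and the receptor C3ar1, at 17.8, 19.6, 26.8 and 26.3 FPKM in PCM and 36.7, 48.7, 49.8 and 54.5 in PAM (log2FC 1.04, adjusted p = 0.028).

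The 3 chains of C1q, which starts the classical complement pathway, showed the weight of mouse 1032. C1qa was at 1127, 780, 1311 and 923 FPKM in PCM and 993, 1621, 2262 and 1761 in PAM. In mouse 1032 the level was lower in PAM for all 3 chains, and in the other 3 mice higher. With all mice their log2FC were 0.65, 0.74 and 0.72 (adjusted p = 0.24, 0.2 and 0.17), and without mouse 1032 they were 0.92, 1.01 and 0.96 (adjusted p = 0.0014, 0.0022 and 0.0014). With any other mouse left out instead, none of the 3 chains passed, and the lowest log2FC were 0.51, 0.58 and 0.57. Over the 12 complement genes, 7 were up-regulated without mouse 1032.

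Homeostatic genes did not form a mirror image of the disease-associated list. Of 29 genes, all tested, 1 was down-regulated and 0 up-regulated by limma (14 at an unadjusted p-value under 0.05), with a median log2FC of -0.27, and for 8 of them every PAM sample lay below every PCM sample. The median was -0.71, 0.08, -0.30 and 0.24 in the single mice, below 0 in 2 of 4. Without mouse 1032 it was -0.09, with 5 genes up-regulated and 1 down-regulated. Tmem119, a membrane protein of microglia, fell from 273, 254, 338 and 330 FPKM in PCM to 64, 153, 143 and 195 in PAM (log2FC -1.20, adjusted p = 0.035). The groups did not overlap, PAM of mouse 1032 was the lowest, and without that mouse the log2FC was -0.91 (adjusted p = 0.0066). CM were at 263 FPKM on average, from 212 to 337, and thus spanned most of the PCM levels and none of the PAM levels.

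Several homeostatic genes were apart between the subtypes and not past the threshold. Crybb1, a crystallin, was at 62.6, 49.5, 70.4 and 47.8 FPKM in PCM and 11.9, 37.3, 14.4 and 19.7 in PAM (log2FC -1.54, adjusted p = 0.052). Siglece, an inhibitory receptor for sialic acid, was at 3.44, 3.41, 11.7 and 4.13 FPKM in PCM and 0, 0, 1.67 and 1.98 in PAM (log2FC -1.83, adjusted p = 0.087). In both the 4 mice were lower in PAM, most in mice 1032 and 1107 for Crybb1. P2ry12, a receptor for ADP, was at 362, 291, 378 and 270 FPKM in PCM and 162, 267, 279 and 245 in PAM, lower in 4 of 4 mice but with overlap (log2FC -0.46, adjusted p = 0.36), and by less without mouse 1032 (log2FC -0.23, adjusted p = 0.41). P2ry13, of the same family, did not overlap (log2FC -0.42, adjusted p = 0.36). Cst3, the most abundant gene of the list, was at 14504, 8354, 16408 and 9762 FPKM in PCM and 11826, 13179, 14445 and 16132 in PAM, lower in 2 mice and higher in 2.

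Only 2 other genes were down-regulated. Gng11, a subunit of G proteins, was at 69.8, 55.4, 63.6 and 46.8 FPKM in PCM and 37.3, 22.7, 30.6 and 17.2 in PAM (log2FC -1.14, adjusted p = 0.019), without overlap and with CM between, at 41.3 FPKM on average. Tmsb15b2, a thymosin that binds actin, named because few genes fell and so chosen after its values were seen, was at 32.8, 11.6, 7.9 and 7.96 FPKM in PCM and 9.26, 2.17, 1.22 and 2.82 in PAM (log2FC -1.74, adjusted p = 0.037). It overlapped because mouse 1032 was highest in both subtypes. Without the mouse as a block, neither of these 2 genes was a DEG.

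**Figure D2:**
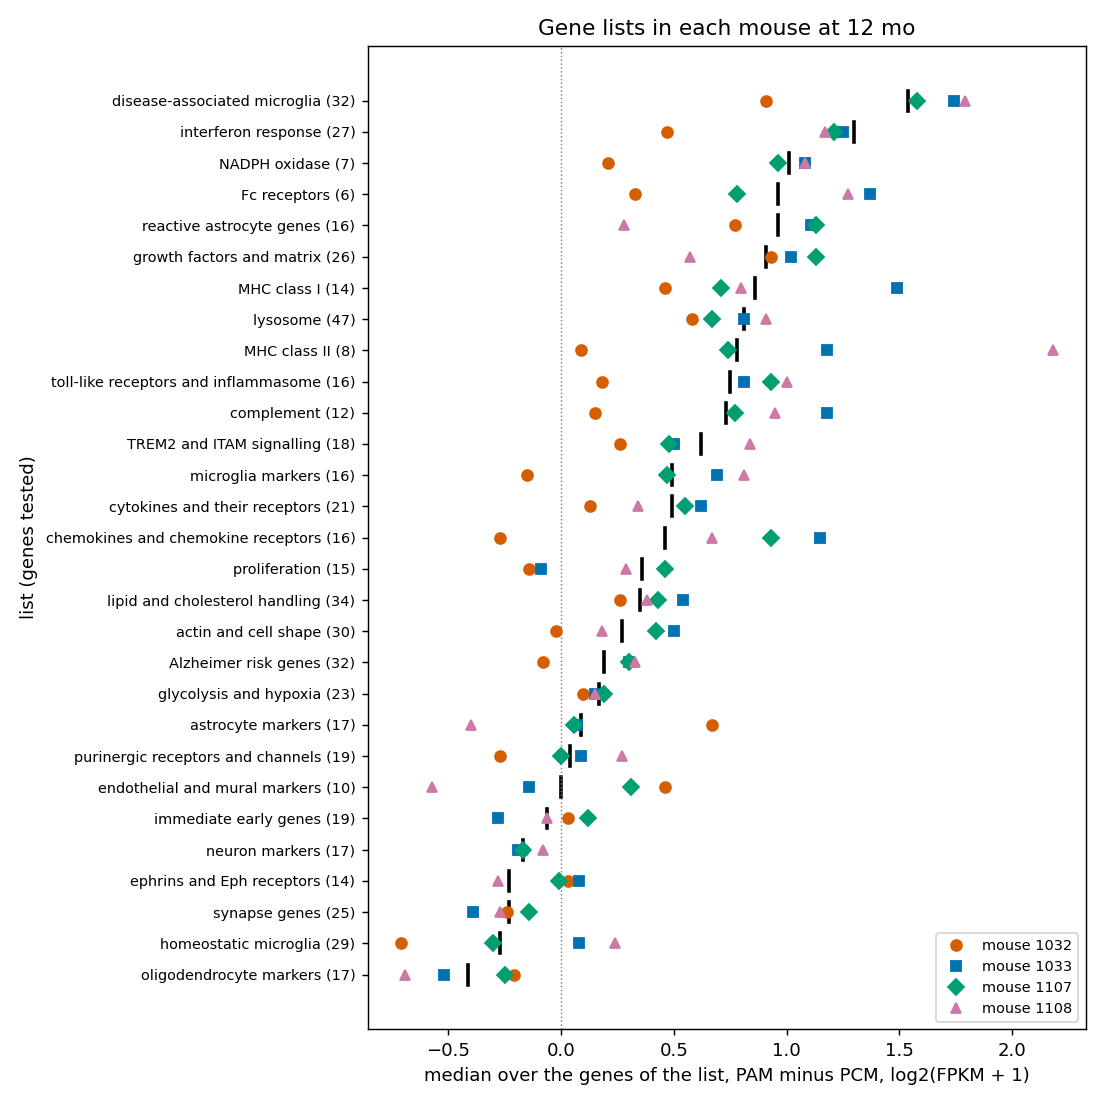
Median over the genes of each list of the difference PAM minus PCM in log2(FPKM + 1), in each of the 4 mice (symbols) and median log2FC of the fit over all 4 (bars), for lists with at least 6 genes tested. The disease-associated list is highest (1.54), and mouse 1032 is the lowest of the 4 mice in it (0.91).

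Of 23 genes of glycolysis and hypoxia, 2 were up-regulated (median log2FC 0.17), the oxygen-regulated factor Hif1a at 28, 33.9, 25.5 and 27.2 FPKM in PCM and 58.3, 101, 90.2 and 67.7 in PAM (log2FC 1.41, adjusted p = 0.0083) and the lactate carrier Slc16a3 at 5.92, 10.1, 12.6 and 7.36 in PCM and 12.7, 33.4, 35.9 and 35.6 in PAM (log2FC 1.55, adjusted p = 0.026). The glycolytic enzymes Aldoa and Gapdh were not past the threshold (log2FC 0.03 and 0.17, adjusted p = 0.96 and 0.66). Of 30 genes of actin and cell shape, 2 were up-regulated (median log2FC 0.27), the filament-capping protein Capg at 48.3, 26.9, 31.1 and 30.4 FPKM in PCM and 87.4, 127, 145 and 104 in PAM (log2FC 1.74, adjusted p = 0.0092) and the Arp2/3 subunit Arpc1b (log2FC 1.38, adjusted p = 0.037). The GTPases Rac1 and Rhoa, which act on actin, and the endosomal Rab5c had log2FC of -0.01, 0.16 and 0.64 (adjusted p = 0.99, 0.7 and 0.32). Without mouse 1032, 3 of the 23 and 5 of the 30 genes were up-regulated, and the median of the actin list was 0.17 without mouse 1033 and 0.18 without mouse 1107. With quantile normalization the median was 0.06 for glycolysis and hypoxia and 0.12 for actin and cell shape.

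Proliferation genes gave 0 DEGs of 15 tested with limma (2 at an unadjusted p-value under 0.05, median log2FC 0.36, but 0.23 without mouse 1107 and -0.12 without mouse 1108). The mitotic kinase Cdk1 was at 2.41, 0.947, 0 and 0 FPKM in PCM and 2.65, 2.66, 6.96 and 2.22 in PAM (adjusted p = 0.3), low in all samples and with PCM of mouse 1032 inside the range of PAM. Of purinergic receptors and channels, 0 of 19 passed with limma (6 at an unadjusted p-value under 0.05), and the median log2FC was 0.04, but -0.02 with quantile normalization and -0.04 with scaling over these 8 samples alone. Without mouse 1032 it was 0.28, with 2 of the 19 up-regulated, and without mice 1033, 1107 and 1108 it was -0.01, 0.10 and 0.01. P2rx4, a channel opened by ATP, was at 28.4, 21.5, 18.4 and 21.5 FPKM in PCM and 22.8, 38.1, 55.8 and 41.8 in PAM (log2FC 0.74, adjusted p = 0.34). It was lower in PAM of mouse 1032 and higher in the other 3, and without mouse 1032 it was up-regulated (log2FC 1.09, adjusted p = 0.027). Ephrins and their receptors gave 0 DEGs of 14 with limma (1 at an unadjusted p-value under 0.05, median log2FC -0.23, and -0.12 without mouse 1033). That 1 was Efnb3, a ligand on the cell surface, at 17.4, 27.2, 25.9 and 31.3 FPKM in PCM and 24.6, 13.7, 8.05 and 14.9 in PAM (log2FC -0.77, adjusted p = 0.39), lower in the 3 mice other than 1032 and down-regulated without mouse 1032 (log2FC -1.18, adjusted p = 0.033).

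Of 32 genes tested that carry risk variants for Alzheimer disease, 4 were up-regulated (median log2FC 0.19), among them Apoe, Trem2 and Ctsb, and 6 without mouse 1032. The median was 0.12, 0.10 and 0.13 without mice 1033, 1107 and 1108. With quantile normalization it was 0.11, and 3 of these genes were up-regulated and 1 down-regulated. Clu, a secreted chaperone made mostly by astrocytes, was at 481, 634, 571 and 717 FPKM in PCM and 1158, 870, 725 and 837 in PAM, without overlap and not past the threshold (log2FC 0.57, adjusted p = 0.24), and the step was largest in mouse 1032. The microglial transcription factor Spi1 was at 52.6, 42.1, 64.4 and 43.7 FPKM in PCM and 40.2, 94.1, 94.1 and 70.2 in PAM (log2FC 0.49, adjusted p = 0.44). App was at 389, 712, 731 and 785 FPKM in PCM and 399, 570, 593 and 729 in PAM (log2FC -0.17, adjusted p = 0.66). Both samples of mouse 1032 lay within the range of CM (343 to 405 FPKM), and those of the other 3 mice above it. The shortest of 5 transcripts (3132 bases) held 98% of App in PCM and 96.6% in PAM.

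Genes of other cells gave values in each sample. Of 17 astrocyte markers, 1 was up-regulated and 0 down-regulated by limma (5 at an unadjusted p-value under 0.05), with a median log2FC of 0.09. Their sum was 2778, 2900, 2575 and 3002 FPKM in PCM and 4486, 3560, 3200 and 2955 in PAM, with Aldoc most abundant (1067 and 1002 FPKM on average). PAM of mouse 1032 held the most, and the median difference was 0.67 in that mouse, 0.07 and 0.06 in mice 1033 and 1107 and -0.40 in mouse 1108. The 1 gene was Gfap, the filament protein of astrocytes, at 236, 294, 199 and 274 FPKM in PCM and 695, 781, 681 and 558 in PAM (log2FC 1.44, adjusted p = 0.0042), with 17.9 FPKM in CM on average. The water channel Aqp4 was at 24.5, 26.5, 11.7 and 20.7 FPKM in PCM and 40.4, 33.8, 36.5 and 27.1 in PAM, without overlap and not past the threshold (log2FC 0.74, adjusted p = 0.26).

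Reactive astrocyte genes, some of which microglia also express, had 3 up-regulated and 0 down-regulated genes of 16 tested by limma (7 at an unadjusted p-value under 0.05), with a median log2FC of 0.96. These were Gfap, the filament protein Vim, at 8.04, 10.4, 8.2 and 8.84 FPKM in PCM and 43, 40, 44.7 and 33.1 in PAM (log2FC 2.06, adjusted p = 0.0042), and the protease inhibitor Serpina3n, at 12.9, 14.9, 13.9 and 16 in PCM and 52.1, 50, 61 and 30.2 in PAM (log2FC 1.64, adjusted p = 0.014). None of the 3 overlapped, mouse 1108 was the lowest PAM sample in each, and mouse 1032 was not low. The 20 genes of the list summed to 419, 478, 339 and 481 FPKM in PCM and 952, 1119, 977 and 830 in PAM, with Gfap most abundant, Lcn2 at 0 in all PCM and Emp1 and Ptx3 at 0 in all PAM. The median difference of the list was 0.77, 1.11, 1.13 and 0.28 in the single mice, smallest in mouse 1108. Without mouse 1032, 4 of the 16 were up-regulated, and 2 of the 17 astrocyte markers. The median log2FC of the list was 0.59 without mouse 1107, and that of the astrocyte markers 0.01, 0.15 and 0.30 without mice 1032, 1107 and 1108.

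The sum of the oligodendrocyte markers, led by Mbp, was lower in PAM in each mouse, at 2249, 3335, 3052 and 3137 FPKM in PCM and 1963, 2342, 2343 and 1971 in PAM. In the 4 CM samples it was 1890, 2412, 2184 and 1952 FPKM. On average PAM (2155) was thus near CM (2109), and PCM (2943) lay above both. Of the single markers 4 had a positive log2FC, and there were 0 DEGs of 17 tested with limma (6 at an unadjusted p-value under 0.05, median log2FC -0.41). Mbp, a myelin protein and the most abundant, was at 1401, 1926, 1640 and 1837 FPKM in PCM and 1103, 1339, 1379 and 1280 in PAM (log2FC -0.41, adjusted p = 0.26), without overlap. Without mouse 1032, 4 of the 17 were down-regulated, among them Mog, of the outer myelin sheath (log2FC -1.25, adjusted p = 0.012). Neuron markers gave 0 DEGs of 17 tested with limma (1 at an unadjusted p-value under 0.05, median log2FC -0.17), synapse genes 0 of 25 (4 at an unadjusted p-value under 0.05, median log2FC -0.23) and immediate early genes 0 of 19 (4 at an unadjusted p-value under 0.05, median log2FC -0.06, and from -0.12 to -0.03 with 1 mouse left out). The median of the neuron markers was -0.28 with quantile normalization. Snap25 was lower in PAM in 4 of 4 mice (log2FC -0.25, adjusted p = 0.52). Of the immediate early genes, Egr1 was at 53.7, 107, 115 and 129 FPKM in PCM and 54.9, 75.7, 125 and 94.1 in PAM (log2FC -0.20, adjusted p = 0.69).

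Endothelial and mural markers summed to 63, 128, 67.1 and 154 FPKM in PCM and 96.2, 110, 120 and 75.8 in PAM, with 0 DEGs of 10 tested with limma (0 at an unadjusted p-value under 0.05) and a median log2FC of 0.00 that was -0.12 with FPKM as deposited and, without mice 1032, 1033, 1107 and 1108 in turn, -0.28, 0.15, 0.01 and 0.41. Border macrophage markers summed to 22.5, 0.384, 4.13 and 0.629 FPKM in PCM and 4.22, 3.94, 6.77 and 3.16 in PAM, with none of the 9 past the filter, Pf4 most abundant and Cbr2 at 0 in all 8 samples. Monocyte and neutrophil markers summed to 21, 32.8, 13.6 and 40.9 FPKM in PCM and 19.5, 27.9, 19.5 and 19.3 in PAM. Ly6c2, found in inflammatory monocytes, was the most abundant of these 12 and Plac8, Chi3l3, Ngp and Camp were at 0 in all 8 samples, and 0 of 3 tested passed with limma (0 at an unadjusted p-value under 0.05, median log2FC 0.02). The median was -0.27, -0.22 and 0.40 without mice 1033, 1107 and 1108. Without mouse 1032 it was 0.94, the log2FC of S100a4, a calcium-binding protein (adjusted p = 0.33). Lymphocyte markers summed to 2.38, 0.778, 0.0321 and 2.65 FPKM in PCM and 2.01, 9.69, 9.41 and 9.27 in PAM. In PAM of mice 1033, 1107 and 1108 most of it was Cd5, at 0.125, 5.4, 6.69 and 6.81 FPKM in PAM and at most 0.48 in PCM (log2FC 1.92, adjusted p = 0.15), the only 1 of 14 past the filter, and Cd8a was at 0 in all 8 samples. Without mouse 1032 Cd5 was up-regulated (log2FC 2.50, adjusted p = 0.012).

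**Figure D3:**
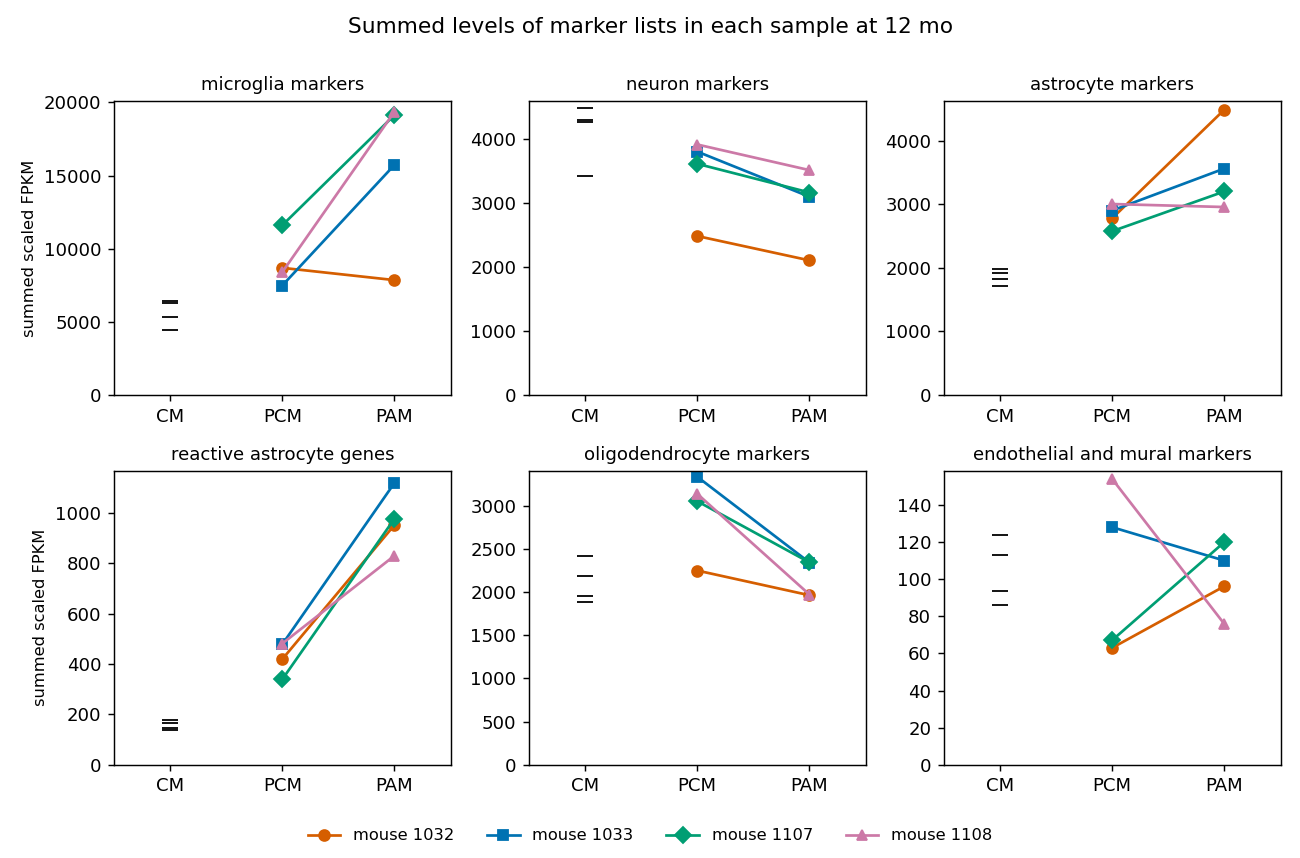
Summed scaled FPKM of 6 marker lists in each CM, PCM and PAM sample at 12 mo, each line joining the 2 samples of 1 mouse. The microglia sum of PAM of mouse 1032 (7855 FPKM) lies within the PCM samples (7485 to 11602), and its astrocyte sum (4486) is the highest of all samples.

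At 8 mo, the same comparison in 4 other mice gave 569 up-regulated (4.68%) and 88 down-regulated genes (0.724%) of 12151 tested. The split depended on the scaling, with 448 up and 194 down for FPKM as deposited and 449 and 235 with quantile normalization. Genes up-regulated at both ages numbered 115, which is 92.7% of those at 12 mo and 20.2% of those at 8 mo, and 0 genes were down-regulated at both or called in opposite directions. Of the 123 up-regulated 12-mo genes tested at 8 mo, 105 had the larger log2FC at 8 mo, where their median was 1.93. Conversely, 544 of 563 genes up-regulated at 8 mo and tested at 12 mo had a positive log2FC at 12 mo, with a median of 0.68 against 1.27 at 8 mo. Of 83 genes down-regulated at 8 mo and tested at 12 mo, 68 had a negative log2FC at 12 mo. The median standard error of the log2FC was 0.33 at 12 mo and 0.34 at 8 mo.

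The difference between the ages was tested by itself in 12607 genes. It passed for 1 gene (0.00793%), and 984 genes (7.81%) had an unadjusted p-value under 0.05 (limma), with 415 larger and 569 smaller at 12 mo. The 1 gene was Gfap, whose log2FC was 1.44 at 12 mo and 3.75 at 8 mo (difference -2.31, SE 0.21, adjusted p = 5.2e-04). Without the filter, or without a trend, limma called 0 genes (1163 and 867 at an unadjusted p-value under 0.05). In 8-mo mice Gfap was at 31.7 to 67.7 FPKM in PCM and 415 to 1031 in PAM. The PAM ranges thus overlapped between the ages and the 12-mo PCM samples (199 to 294 FPKM) lay above all 8-mo PCM samples. Of the DEGs at 12 mo, 42 up-regulated genes had a smaller and 3 a larger difference at 12 mo at an unadjusted p-value under 0.05.

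Single genes illustrate both directions, none past the threshold for the difference between the ages. The log2FC of Ccl3 was 3.57 in the younger and 2.27 in the older mice (adjusted p of the difference 0.43), with 8-mo PCM at 9.55 to 49.1 FPKM and 8-mo PAM at 160 to 446. Clec7a had 3.82 and 2.05 (adjusted p = 0.52), with 8-mo PCM at 5.1 to 25.8 FPKM and 8-mo PAM at 149 to 203, so that the 12-mo levels differed mostly in PCM. Tmem176b, a membrane protein of myeloid cells, was at 191, 152, 151 and 135 FPKM in 12-mo PCM and 306, 335, 348 and 284 in 12-mo PAM, and its log2FC was 2.04 in the younger mice and 1.02 in the older (adjusted p = 0.5). The astrocyte marker Aldh1l1, an enzyme of folate metabolism, was up-regulated at 8 mo (log2FC 1.26, adjusted p = 0.0042) but not at 12 mo (log2FC 0.04, adjusted p = 0.95), with 25.8, 25.2, 27.3 and 29.2 FPKM in PCM and 28.7, 24, 31.6 and 27 in PAM (adjusted p of the difference 0.5).

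Gimap6, a GTPase of immune cells, had the largest difference among the genes named by age (3.64, adjusted p = 0.48). It was at 0, 3.42, 0.583 and 8.06 FPKM in PCM and 4.15, 3.34, 5.88 and 5.84 in PAM, higher in 2 of 4 mice and with overlap (log2FC 1.01, adjusted p = 0.51), and at 8 mo it was down-regulated (log2FC -2.62). St8sia4, which adds polysialic acid to proteins, was up-regulated at 12 mo, at 0.613, 1.25, 1.08 and 0.589 FPKM in PCM and 8.37, 8.12, 8.51 and 5.68 in PAM (log2FC 2.21, adjusted p = 0.024), without overlap. At 8 mo it was higher in PAM in 1 of 4 mice (log2FC -0.71, adjusted p of the difference between the ages 0.5). Pdyn, the precursor of the neuropeptide dynorphin, was at 1.81, 5.81, 12.6 and 4.8 FPKM in PCM and 11.7, 14.6, 44.9 and 11.4 in PAM (log2FC 1.56, adjusted p = 0.046), and was higher in PAM in 1 of 4 mice at 8 mo (log2FC -1.34, adjusted p of the difference 0.5). Zcchc4, which methylates ribosomal RNA, was higher in PAM in 4 of 4 mice at 12 mo (0.0221, 2.04, 0 and 1.28 FPKM in PCM, 2.09, 8.34, 1.29 and 1.48 in PAM, log2FC 1.13, adjusted p = 0.32) and down-regulated at 8 mo, where it was lower in 4 of 4 mice and listed at 0 in all PAM (adjusted p of the difference 0.25).

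Tmem119 was lower in PAM in 4 of 4 mice at 12 mo and in 3 of 4 at 8 mo (log2FC -1.20 and -0.42), and the difference between the ages did not pass (adjusted p = 0.62).

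**Figure D4:**
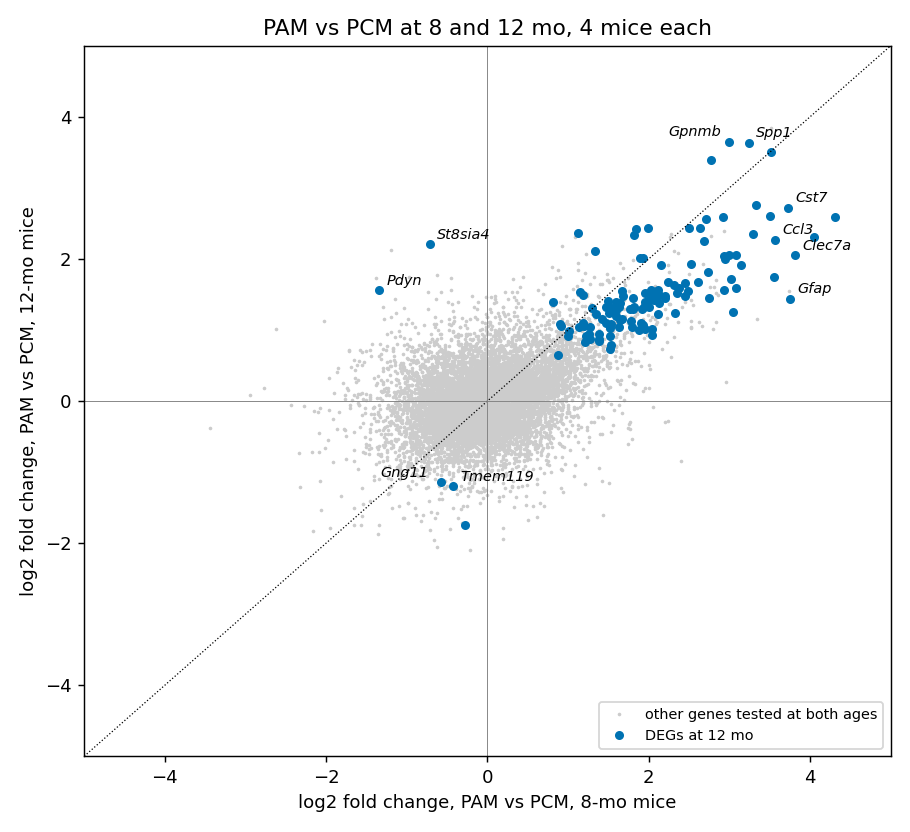
log2FC of PAM vs PCM in 8-mo mice (horizontal) and 12-mo mice (vertical) for genes tested at both ages, with DEGs at 12 mo in blue and the line of equal values dotted. Gfap lies far to the right of the line (3.75 at 8 mo, 1.44 at 12 mo), and Pdyn and St8sia4 lie left of 0 at 8 mo (-1.34 and -0.71).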

How the data were processed

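Laser-captured cortical microglia of 32 samples were sequenced by the study at 75 bp, and 8 of them, PAM and PCM of 4 mice at 12 mo, form the comparison. The authors made the deposited FPKM with Cufflinks 2.1.1 after bcl2fastq 2.17.1.14, cutadapt 1.9.1 and TopHat2 2.1.0 on mm10, according to the submitters' processing notes. The deposited coverage column of the same Cufflinks tables, the read depth over each transcript, entered no test and served for the estimate of depth alone, from its median ratio to FPKM. Of 31002 transcripts per file, 503 without a gene name and 22 genes with a failed estimate were left out, and 23345 genes were used. FPKM were summed per gene, scaled by RLE over 10668 genes and fitted as log2(FPKM + 1) with limma 3.58.1 in R 4.3.3 (trend, Benjamini-Hochberg, 2-sided), with Python 3.11.15, pandas 2.3.3 and numpy 2.4.6 for tables and matplotlib 3.10.9 for figures. The fits were tested on simulated data: of genes given a log2 change of 1 or 2, 8 and 53% were recovered at 12 mo and 6 and 38% at 8 mo, and 9 and 21% for the difference between the ages. Noise was simulated independently for each gene, with as many rises as falls and no other change between the subtypes. The data differ in this, so these shares do not measure the power of the fits on the data.

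Depth so estimated was 24.15 to 34.41 M reads per sample and is given for each in the report. Pairing rests on the mouse number in the labels, as both samples come from 1 animal. Checked over all genes, deviations from the subtype means correlated within mouse at 0.168, 0.00937, 0.0684 and 0.176, weakly. Between different mice of 12 mo the correlations ran from -0.203 to 0.105. PAM of mice 1032, 1107 and 1108 correlated most with their own PCM. That of mouse 1033 correlated more with PCM of mouse 1107 (0.0171), so the check did not single out its pair. The same contrast was fitted at 8 mo, and the difference between the ages in 1 fit over both.

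Genes were named by rule: up to 10 rises and 10 falls among DEGs that moved the same way in 4 of 4 mice without overlap, in each list up to 4 with the largest log2FC and 3 with the highest level, genes the study names, and up to 5 per direction by age. Others are marked in the text as chosen after their values were seen. The samples compared and the lists were chosen with earlier results of these data known. Alternatives were no block, FPKM as deposited, quantile normalization, RLE over the fitted samples, other pseudocounts and filters, the most abundant transcript alone, no trend, both ages in 1 fit, and leaving out each mouse.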

Additional observations from a re-analysis of the deposited data

Results flagged for a closer look

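A sample was marked when it stood far from the other 3 of its group, by Dixon's criterion. Chance marks about 1 in 20 groups, and here 28 of 362 groups of gene values were marked (7.73%) and 3 of 24 groups of sums, depths and scaling factors. Mice 1032 and 1107 had 10 gene values each, mouse 1033 had 5 and mouse 1108 had 3.

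In PCM of mouse 1032, Calb2 (88.7 FPKM), Penk (489), Apoc4 (2.89) and Cdca8 (5.1) were high and Snap25 (806) and St14 (0) low. In PAM of mouse 1032, Acta2 (5.77) was high and Hvcn1 (30.3), Nrgn (228) and Slc16a3 (12.7) low. In PCM of mouse 1107, Ccl3 (79.8), Ifngr1 (101), Serping1 (4.4), Siglece (11.7), Spp1 (186) and Trem2 (535) were high and S100a10 (76.1) low, and in PAM of that mouse Cdk1 (6.96), Esam (23.2) and Pdyn (44.9) were high. In mouse 1033, Atp6v0d2 (0.734), Casp4 (1.01) and Il1b (1.41) were high in PCM and Egr2 (12.8) and Zcchc4 (8.34) in PAM. In PAM of mouse 1108, Zfp36 (21.8) was high and Mamdc2 (16.6) and St8sia4 (5.68) low.

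Of the summed markers, those of border macrophages stood out in PCM of mouse 1032 (22.5 FPKM), those of monocytes and neutrophils in PAM of mouse 1033 (27.9) and those of lymphocytes in PAM of mouse 1032 (2.01, the lowest).

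A difference between groups passed the limma test for Gfap, whose log2FC of PAM vs PCM was smaller at 12 than at 8 mo (difference -2.31). This call was lost without the filter and without a trend.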

How the results depend on the processing

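At 12 mo the number of DEGs was 127, and 107 without the mouse as a block (92 of them shared), 136 with FPKM as deposited, 154 with quantile normalization, 128 with RLE over the fitted samples, 156 with a pseudocount of 5, 168 with a filter of 5 FPKM, 107 with the most abundant transcript alone and 156 with both ages in 1 fit. It was 64 with a pseudocount of 0.1, and with limma 0 without the filter (1510 at an unadjusted p-value under 0.05, with more genes tested) and 0 without a trend (1332 at an unadjusted p-value under 0.05). When 1 mouse was left out it ranged from 6 (without 1107) to 357 (without 1032). The cause was not tested. Without the block the 124 up and 3 down became 106 and 1. All 3 down-regulated genes lost their call, and the 1 was Crybb1. Of the genes named by rule, 14 lost and 3 gained their call. The number of all DEGs moved by less than 1.5 times, and that of down-regulated genes by more.

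At 8 mo there were 657 DEGs, 659 without the block, 19 without the filter, 151 without a trend and from 298 (without 1089) to 609 (without 1088) when 1 mouse was left out. The split of 569 up and 88 down became 448 and 194 with FPKM as deposited, where the median log2FC of all genes was -0.15, and 449 and 235 with quantile normalization. The cause was not tested.

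For the difference between the ages there was 1 DEG, 1 without the block, from 1 to 2 (without 1190) when 1 mouse was left out, and with limma 0 without the filter (1163 at an unadjusted p-value under 0.05) and 0 without a trend (867 at an unadjusted p-value under 0.05).

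Of 181 genes named by rule and tested, 56 were DEGs at 12 mo and none of them changed direction under any alternative. Apart from the fits without filter, without trend or with a mouse left out, 26 of the 56 stayed DEGs throughout. Of the other named genes, 19 changed sign in at least 1 alternative.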

Other observations

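Limits apply to all values above. There were 4 mice, and the number of DEGs changed several-fold with the mice kept, the filter and the trend, so a gene short of the threshold is not a gene without change. No read counts were among the files used, so the counting error of single genes was not modelled. Each sample pools captured cells, and RNA of neighbouring astrocytes, neurons and oligodendrocytes was present in all 8 samples. The 8-mo and 12-mo mice are different animals. The tables used do not by themselves separate mutant APP from mouse App, and the check of this that the study describes was not repeated. Sequence matches in promoters were not set against binding data, and protein levels were not measured here.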
